A study of Homo sapiens with 20 samples.

Results

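The genes described here are 115 of the 20314 genes of the count table whose RNA was lower in U2-OS cells with NFKBIA knockdown while it stayed near the untreated level in both groups of irradiated cells. They were chosen from these libraries by their values. Levels are given in CPM, the counts of a gene per 1000000 counts of its library. For each group, the log2 of the median CPM plus 0.5 was taken. A gene was kept with an untreated median of at least 1 CPM, a knockdown value at least 0.6 below the untreated value, and 90-minute and 7-day values within 0.35 of it. Since the choice used the values of all 4 groups, the differences between groups below are a description of the genes chosen, with no test. Of the 20314 genes, 13367 had an untreated median of at least 1 CPM. Among these, 450 were at least 0.6 lower in the knockdown. In 258 of the 450 the 7-day value was also lower by more than 0.35, in 64 it was higher by more than 0.35, and a further 13 left the limit only at 90 minutes. The remaining 115 genes are the subject here.

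RNA was sequenced from 20 libraries of U2-OS, a human osteosarcoma cell line, in 4 groups of 5. The groups were untreated cells, cells harvested 90 minutes after irradiation (IR) with 20 Gy, cells harvested 7 days after the same dose, and cells that were not irradiated and in which NFKBIA was knocked down with an shRNA. All cells were grown in DMEM with FCS. According to the study's methods, inducible shRNAs were delivered in a vector, cells were selected as clones with puromycin, and expression was switched on with doxycycline for several days before harvest, so that clone, vector, selection and drug may come with the knockdown. The methods name cells with an inducible scrambled shRNA, given doxycycline, as controls for knockdown, but the labels list the libraries used here only as untreated and do not say whether these cells carried such an shRNA or received these drugs, so the knockdown and these agents cannot be told apart. Osteoblast markers RUNX2, ALPL and SPP1 were present, whereas SP7 and DLX5 were at or near 0, and of 5 blood cell markers none reached 1 CPM in untreated cells, their sum being 0.879 to 2.04 CPM there and 0.217 to 0.580 CPM in the knockdown. The methods had the vector packaged in HEK293T, a line derived from human embryonic kidney. Of 4 markers listed for such cells, 3 were found in the count table and NEFL was not. Among the 3, NEFM was at or near 0. Their sum was 16.7 to 25.2 CPM in untreated libraries, 20.9 to 25.2 at 90 minutes, 24.4 to 26.9 at 7 days and 29.5 to 31.7 in the knockdown. Most of it was LIN28B, with medians of 21.4 CPM in untreated and 29.9 CPM in knockdown libraries, while PAX2 had 1.24 and 0.926 CPM. The part of these cell types in the results was not tested.

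NFKBIA encodes IκBα, the inhibitor that keeps NF-κB transcription factors in the cytoplasm and that is itself made in response to NF-κB. When the IκB kinase complex marks IκBα for degradation, NF-κB enters the nucleus and raises genes of inflammation and survival, and the newly made IκBα ends the response. By a grouping made after the values were seen, 22 of the 115 genes encode receptors, ligands or signalling proteins, 18 matrix or secreted proteins, and 16 keratins, junction proteins or proteins of the cytoskeleton. Matrix, keratin and junction proteins form the layer on which a cell sits, the filaments inside it and the contacts between cells.

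Library totals ranged from 22535659 counts in untreated replicate 5 to 40390961 in untreated replicate 3. NFKBIA itself had 28.2, 23.5, 27.2, 34.3 and 39.1 CPM in untreated replicates 1 to 5 and 13.2, 11.4, 12.4, 12.2 and 12.7 CPM in the knockdown, and these ranges did not overlap. It stood at 76 to 87.9 CPM at 90 minutes and at 28.7 to 32.8 CPM at 7 days. The log2 fold change in the knockdown was -1.36 (SE 0.11), with an adjusted p = 4.87e-09 by the quasi-likelihood test of edgeR and the Benjamini-Hochberg method. An exact two-sided permutation test of log2 CPM gave p = 0.00794, the smallest that 5 libraries against 5 can give. Sequencing lane followed the groups. Untreated libraries ran in lanes 2 and 3 and knockdown libraries in lanes 5 and 6, so that group and lane cannot be told apart between them. In lane 5, which held knockdown replicate 1 and 3 libraries of the 7-day group, the knockdown library was below all 3 in 114 of the 115 genes, against 43.0% of the 14992 genes tested. The rule placed the knockdown median below the 7-day median in each gene, so nothing is read from this count.

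Since the genes were chosen for a shared pattern, the sequence before their start sites was read for shared motifs. RefSeq's table for build GRCh38.p14 gave a promoter, 250 bases before to 50 after the start, for 83 of the 115 genes. The AP-1 motif TGANTCA, which reads as itself on the other strand, lay in 5 of the 83 (6.02%). It lay in 7.76% of all 27305 promoters of the table and in 4.57% of those of the other genes with an untreated median of at least 1 CPM. Only LAMA3 among the 5 belongs to the 15 genes with the lowest difference, and the other 4, like CTGF, were picked for display after their values were seen. In the lines that follow the AP-1 motif is in capitals. LAMA3 on the plus strand at chr18:23872770-23873019 is shown as the 250 bases before the start, and ANXA2 (minus strand, chr15:60398085-60398135), S100A2 (minus strand, chr1:153565868-153565918), AMIGO2 (minus strand, chr12:47080154-47080201) and XIRP1 (minus strand, chr3:39192805-39192845) as the bases around the motif.
LAMA3: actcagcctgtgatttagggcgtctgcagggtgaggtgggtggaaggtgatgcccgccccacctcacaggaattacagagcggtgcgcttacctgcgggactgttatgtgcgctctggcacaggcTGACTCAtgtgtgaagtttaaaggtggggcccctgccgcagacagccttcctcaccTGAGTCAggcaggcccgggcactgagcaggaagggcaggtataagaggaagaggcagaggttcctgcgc
ANXA2: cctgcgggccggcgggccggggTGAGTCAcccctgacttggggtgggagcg
S100A2: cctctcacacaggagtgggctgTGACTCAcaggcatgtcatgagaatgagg
AMIGO2: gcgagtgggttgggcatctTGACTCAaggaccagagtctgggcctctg
XIRP1: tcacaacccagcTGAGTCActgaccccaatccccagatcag

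LAMA3 alone held the motif at 2 places, 125 to 119 and 69 to 63 bases before its start. The promoters of IL7R and CTGF show other motifs. IL7R lies on the plus strand at chr5:35856641-35856890, with the TATA box motif TATAAA, read on either strand, in capitals. CTGF, listed by RefSeq as CCN2, lies on the minus strand at chr6:131951373-131951622, with TATAAA, the TEAD motif GGAATG and a κB motif in capitals, the κB match overlapping the last GGAATG.
IL7R: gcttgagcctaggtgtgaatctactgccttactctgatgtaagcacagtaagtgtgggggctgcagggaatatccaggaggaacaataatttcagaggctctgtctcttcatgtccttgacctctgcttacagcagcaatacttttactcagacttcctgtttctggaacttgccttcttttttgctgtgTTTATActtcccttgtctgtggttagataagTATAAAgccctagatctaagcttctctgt
CTGF: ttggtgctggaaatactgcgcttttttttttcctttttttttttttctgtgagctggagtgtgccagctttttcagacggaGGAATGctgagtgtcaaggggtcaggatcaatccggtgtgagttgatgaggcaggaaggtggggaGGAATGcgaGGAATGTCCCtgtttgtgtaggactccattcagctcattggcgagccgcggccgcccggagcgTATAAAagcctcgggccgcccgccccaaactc

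The κB motif of NF-κB, searched on both strands, lay in 11 of the 83 promoters (13.3%), against 12.8% of the promoters of other genes at this level. These 11 were those of ADCY2, CTGF, ERC1, HN1, PDZRN3, PIEZO2, RASSF9, TINAGL1, UBASH3B, UBE2QL1 and VASP. TATAAA lay in 7 of the 83 (8.43%) against 5.48%, and GGAATG in 9 (10.8%) against 10.9%. The GC box GGGCGG was present in 71.1% against 70.3%, and the median GC content was 65.3% in both sets. A match in these windows is only a description of the letters.

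**Figure D1:**
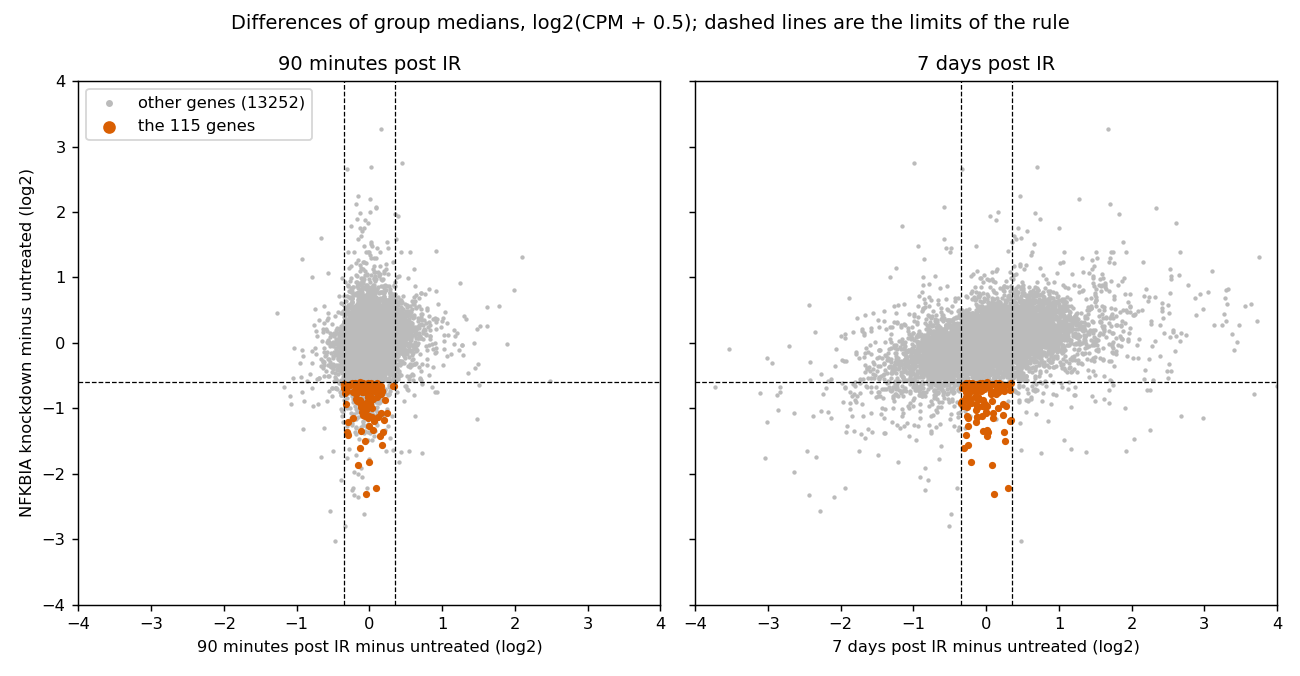
Difference of each group's log2(median CPM + 0.5) from the untreated group for 13367 genes, with the knockdown on the vertical axis and 90 minutes (left) or 7 days (right) post IR on the horizontal axis. Orange points are the 115 genes, and dashed lines mark the limits of -0.6 and 0.35. The cloud is wider at 7 days than at 90 minutes, and 1 gene lies outside the axes of the 7-day panel.

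Over the 115 genes the median difference of the knockdown from untreated was -0.75 on the log2 scale, where that of all 13367 genes was 0.04. The lowest was -2.31, the quartiles were -0.99 and -0.65, and 29 genes were at -1 or lower. The median level was 20.7 CPM in untreated cells, 21.1 at 90 minutes, 21.2 at 7 days and 11.5 in the knockdown. Expressed as a share of the untreated median, the knockdown level ranged from 16.4% to 65.5%, with a median of 55.0%. In each of the 5 knockdown libraries all 115 genes were below their untreated median, and the median difference per library ran from -0.74 to -0.83. In 94 genes every knockdown library was below every untreated library, a pattern that 8.93% of the 14992 genes tested showed. In 91 genes every knockdown library was below all 15 others, against 3.25% of the genes tested. The rule chose genes for these differences, so these counts are a description too. In the fit, 114 of the 115 were called lower, with an adjusted p under 0.05 and a log2 fold change under -0.5. This call was made for 7.53% of the genes tested, and the rule used the same contrast, so nothing is read from the count. SP6, which encodes a zinc finger transcription factor, was the exception in this fit with a log2 fold change of -0.50 (SE 0.15). With the sequencing lane as a factor in the fit, 75 of the 115 were called lower and 112 had a log2 fold change below 0, where 14.0% of all genes tested were called lower. Of the untreated and knockdown libraries, only untreated replicate 5 and knockdown replicate 1 shared a lane with another group. The values of that fit therefore rested on these libraries, joined through the irradiated groups. They cannot tell lane from group for single genes. Above 0 were IGFL2 at 0.71 (SE 0.66), THAP11 at 0.46 (SE 0.20) and MATN2 at 0.25 (SE 0.37), and 9 further genes lay between -0.2 and 0. Besides these 3, the genes not called in that fit were PDLIM1, AL662899.1, GPR1, ABHD16A, TUBA3E, PDZRN3, C10orf11, KCNK1, AC112721.1, CNN1, ZBTB7C, VSTM1, HN1, NRN1, FBXO2, ANK1, CTGF, THSD7B, BACE2, AC010326.2, AMIGO2, SP6, QPRT, ZNF586, ANXA2, TRPM2, NELL1, KIAA2022, LRRC66, C1orf226, ZFP82, TMC5, NRCAM, NSDHL, RCAN1, CENPB and FAM19A5. The fitted log2 fold change is that of the knockdown against untreated, in a fit of all libraries after TMM scaling. It rests on group means, so it differs from the difference of medians.

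**Figure D2:**
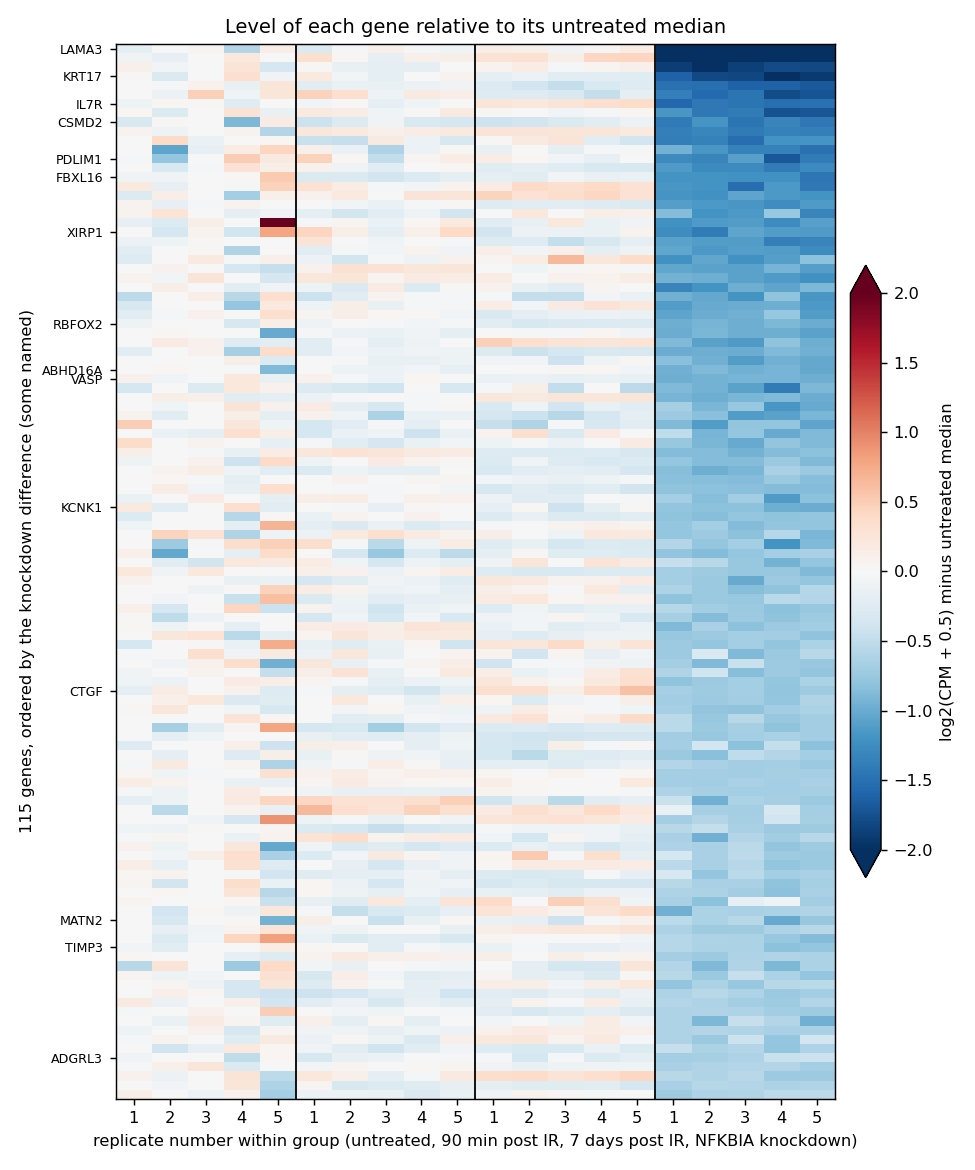
Level of each of the 115 genes (rows, ordered by the knockdown difference, some named) in each of the 20 libraries (columns), as log2(CPM + 0.5) minus the gene's untreated median. The 5 knockdown columns are on the blue side in all 115 rows, the 10 irradiated columns are pale, and outside the knockdown the strongest colours are in untreated replicate 5.

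The 21 genes that overlapped did so mostly through 1 library. In 13 of them only untreated replicate 5 reached the knockdown range, and without that library 107 of the 115 genes had no overlap, against 13.5% of all genes tested. These 13 were AL662899.1, ABHD16A, FBXO2, ANK1, AC010326.2, AMIGO2, THAP11, IGFL2, ZNF586, NELL1, MATN2, CENPB and FAM19A5. Untreated replicate 5 was the highest untreated library in 41 of the 115 genes and the lowest in 35, and it had the fewest counts. Untreated replicates 2 and 4 also lay apart from each other in a way that followed gene length. Across the 14992 genes tested, Spearman's rho between the width of a gene and the difference of replicate 4 from replicate 2 was -0.53, so that long genes were low in replicate 4. These genes share 2 libraries and are no independent replicates. For the fitted log2 fold change of the knockdown the same rho was 0.03, and over the 115 genes it was 0.00.

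The genes are taken below by what they encode. The grouping was made after the values were seen, and it covers all of them. Matrix and secreted proteins were 18 genes with a median difference of -0.90, and 9 of them were at -1 or lower. Keratins, junction proteins and the cytoskeleton were 16 genes with a median of -0.91. Neural adhesion proteins were 10 genes (-0.74), receptors, ligands and signalling proteins 22 (-0.74), channels and transporters 9 (-0.80), proteins of metabolism, lipids and protein turnover 17 (-0.75), and nuclear and RNA-handling proteins 13 (-0.68). No role is given here for 10 genes.

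Among matrix genes, LAMA3 had the lowest difference of all. It encodes the alpha chain of the laminin with which epithelial cells hold to the basement membrane. LAMA3 stood at 12.7, 14.4, 15, 9.4 and 15.9 CPM in untreated replicates 1 to 5 and at 3.02, 2.77, 2.32, 2.51 and 2.28 CPM in the knockdown. At 90 minutes it ranged over 11.7 to 15.6 CPM and at 7 days over 13.6 to 16.1 CPM, so the irradiated libraries lay in or near the untreated range and the knockdown below all of them. Its fitted log2 fold change was -2.44 (SE 0.13).

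COL1A1, the alpha chain that with its partner makes up type I collagen, was the gene with the most counts of the 115. Its untreated libraries held 1875, 1834, 1999, 1700.0 and 2216 CPM and its knockdown libraries 668, 661, 613, 611 and 588 CPM, a log2 fold change of -1.68 (SE 0.07). The 7-day libraries, at 1340.5 to 1564 CPM, lay below the untreated ones and far above the knockdown. The fitted 7-day log2 fold change of COL1A1 was -0.43 (SE 0.07). The partner chain COL1A2 was close to absent, with a mean of 0.401 CPM in untreated cells and 0.258 in the knockdown. COL1A1 made up most of the summed level of 8 osteoblast markers, which was 1839 to 2509 CPM in untreated and 749 to 812 CPM in knockdown libraries. Of the others ALPL, alkaline phosphatase, was called lower in the knockdown (-1.96 on the log2 scale) and higher at 7 days (0.77). MFAP5, a protein of elastic microfibrils, went from 39.4, 37.2, 41.8, 48 and 41.6 CPM in untreated cells to 8.55, 8.3, 10.01, 6.59 and 8.82 CPM in the knockdown, -2.35 (SE 0.11) on the log2 scale. It was the only one of the 5 genes with the lowest difference whose 7-day fold change was upward by more than 0.2, at 0.27 (SE 0.10). FBN2, a fibrillin that builds the same microfibrils, had 373, 436, 453, 255 and 328 CPM in untreated and 219, 225, 232, 230.3 and 213 CPM in knockdown libraries, with untreated replicate 4 nearest to the knockdown.

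IGFBP7, a secreted protein that binds insulin-like growth factors and insulin, was at 79.1, 71.1, 73.5, 88 and 58.2 CPM in untreated cells and at 19.5, 17.7, 19.8, 20.9 and 20.6 CPM in the knockdown, -1.97 (SE 0.08) on the log2 scale, with no overlap. CTGF, a matricellular protein and a known target of the Hippo pathway's effectors YAP and TAZ, had 217, 276, 249, 265 and 209 CPM in untreated cells and 157, 151, 156, 143 and 152 CPM in the knockdown. At 7 days it had 269 to 372 CPM, its median just inside the 0.35 limit. Its log2 fold change in the knockdown was -0.74 (SE 0.08), and -0.45 (SE 0.23) with the lane as a factor, where it was not called. WISP1, of the same family as CTGF, had an untreated median of 1.21 CPM and a knockdown median of 0.30 CPM. TIMP3, an inhibitor of metalloproteinases that is bound to the matrix, ranged over 80.5 to 103 CPM in untreated and 52.7 to 62.6 CPM in knockdown libraries. MATN2, a matrilin that forms filaments in the matrix, overlapped between 9.27 to 18.5 and 8.8 to 12.6 CPM through untreated replicate 5. CST5, a secreted inhibitor of cysteine proteases, was low, with 3.76 to 5.69 CPM in untreated and 1.13 to 1.55 CPM in knockdown libraries. The other matrix and secreted genes were TINAGL1, which encodes a matrix glycoprotein and had medians of 148 and 67.8 CPM, MUC3A, MSLN, THSD7B, NELL1, IGFL2 and FAM19A5. MUC3A, a mucin gene, was singled out after its values were seen, because untreated replicate 5 held 18.8 CPM where the other untreated libraries held 2.84 to 3.89, and the knockdown 1.20 to 1.41.

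Of the 57 extracellular matrix and adhesion genes listed for this work, 53 were tested and 14 were called lower in the knockdown and 1 higher, against 7.53% and 5.18% of all genes tested. Of the 115 genes 4 are in this list, LAMA3, FBN2 and MATN2 among them. Of the 14, 8 were past the 0.35 limit downward at 7 days, such as THBS1 (thrombospondin, log2 fold changes of -2.19 in the knockdown and -0.44 at 7 days), and 2 upward, among them the fibronectin gene FN1 (-1.24 and 0.80). The list's median log2 fold change in the knockdown was -0.20, where that of all genes tested was -0.01. Of 26 collagen genes, 9 were called lower in the knockdown and 1 higher, against the same 7.53% and 5.18%, and COL1A1 alone is among the 115, since 7 of the other 8 were below the 7-day limit and 1 was above it.

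**Figure D3:**
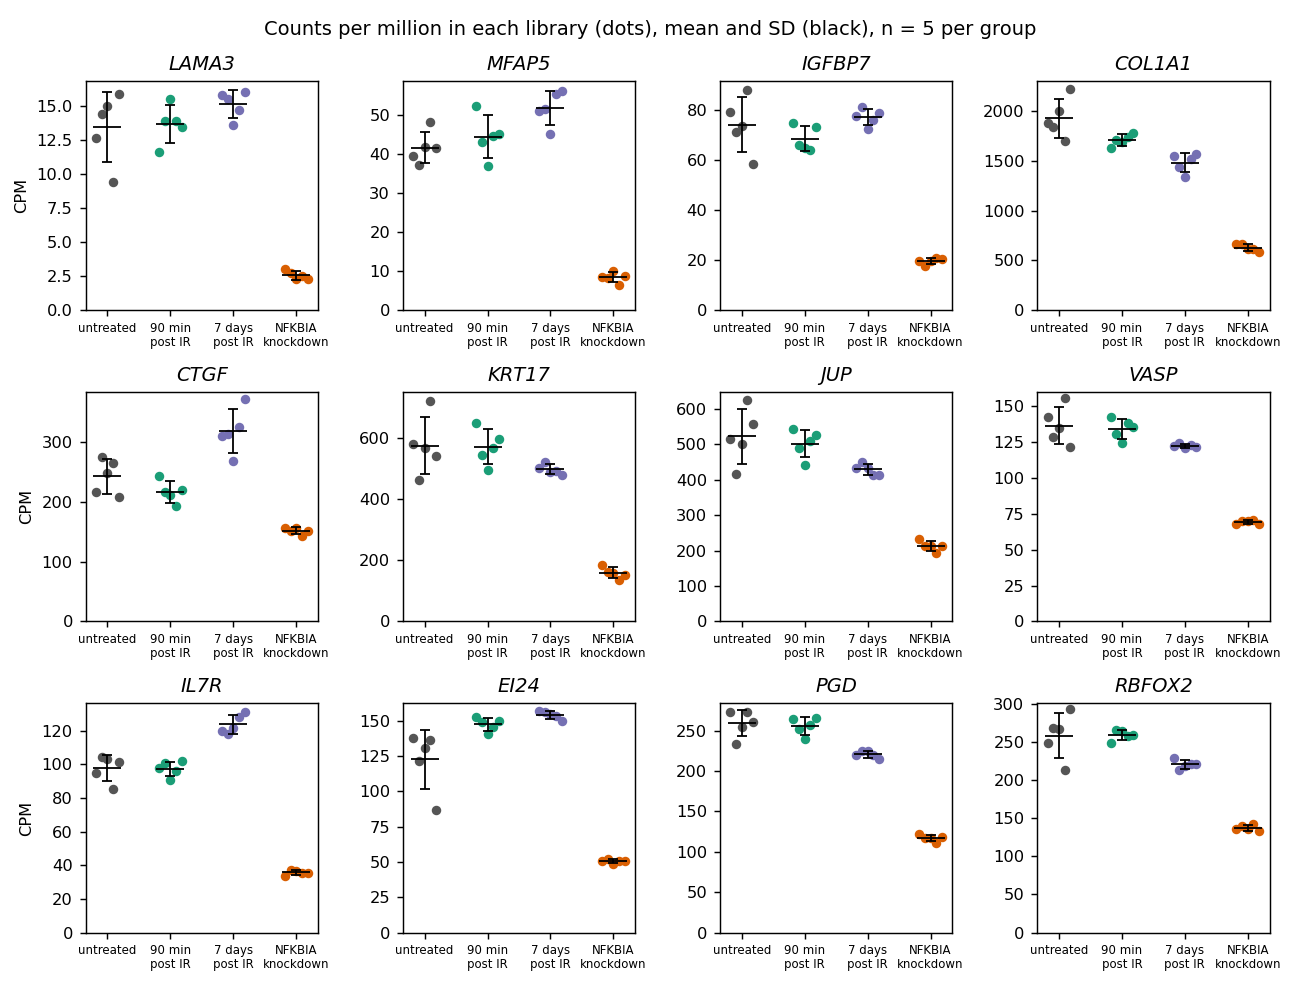
CPM of 12 of the genes in each library (dots, from replicate 1 on the left to replicate 5), with the mean and SD of the 5 libraries of each group in black. In all 12 panels the 5 knockdown libraries lie below the 15 others, for example at 67.8 to 70.3 CPM for VASP against 122 to 155 in untreated libraries.

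Keratin and junction genes were led by KRT17, a type I keratin of basal and stressed epithelium that U2-OS cells also make. It had 579.6, 463, 567, 719.7 and 539 CPM in untreated cells, 495 to 649 at 90 minutes, 479 to 522 at 7 days and 185, 162, 159.6, 135 and 150.4 in the knockdown, with a log2 fold change of -1.91 (SE 0.10). JUP, plakoglobin, ties such filaments to desmosomes and is also a component of adherens junctions. JUP had 514, 415, 502, 626 and 558 CPM in untreated cells and 234, 213, 212, 194 and 213 CPM in the knockdown, -1.36 (SE 0.09) on the log2 scale. Both genes were lowest in replicate 2 and highest in replicate 4 of the untreated libraries, and neither overlapped with the knockdown. On chromosome 17 they lie on the same strand, 129.8 kb apart and 3 places apart among genes with an untreated median of at least 1 CPM. KRT14 and KRT16, near relatives of KRT17 in sequence, had means of 4.70 and 0.851 CPM in untreated cells. KRT14 had log2 fold changes of -3.27 (SE 0.18) in the knockdown and -2.70 (SE 0.17) at 7 days, and was therefore outside the rule.

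Of 33 keratin and epithelial junction genes 28 were tested, and 7 were called lower and 2 higher in the knockdown, against 7.53% and 5.18% of all genes tested. Besides KRT17 and JUP, the lowered ones were KRT14, KRT5, KRT8, CDH1 and DSP. DSP, desmoplakin, had -1.69 in the knockdown and 2.86 at 7 days, and CDH1, E-cadherin, -2.01 and -0.72. The median over the list was -0.24 in the knockdown. KRT5 and CDH1 were low, at means of 0.444 and 1.78 CPM in untreated cells. The summed level of the 4 epithelial markers CDH1, EPCAM, KRT8 and KRT18, all above 1 CPM in untreated cells, was 586 to 1087 CPM in untreated and 648 to 715 CPM in knockdown libraries, and its part in these results was not tested. These are bulk libraries, in which fewer cells that express a gene and less RNA per cell cannot be told apart.

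**Figure D4:**
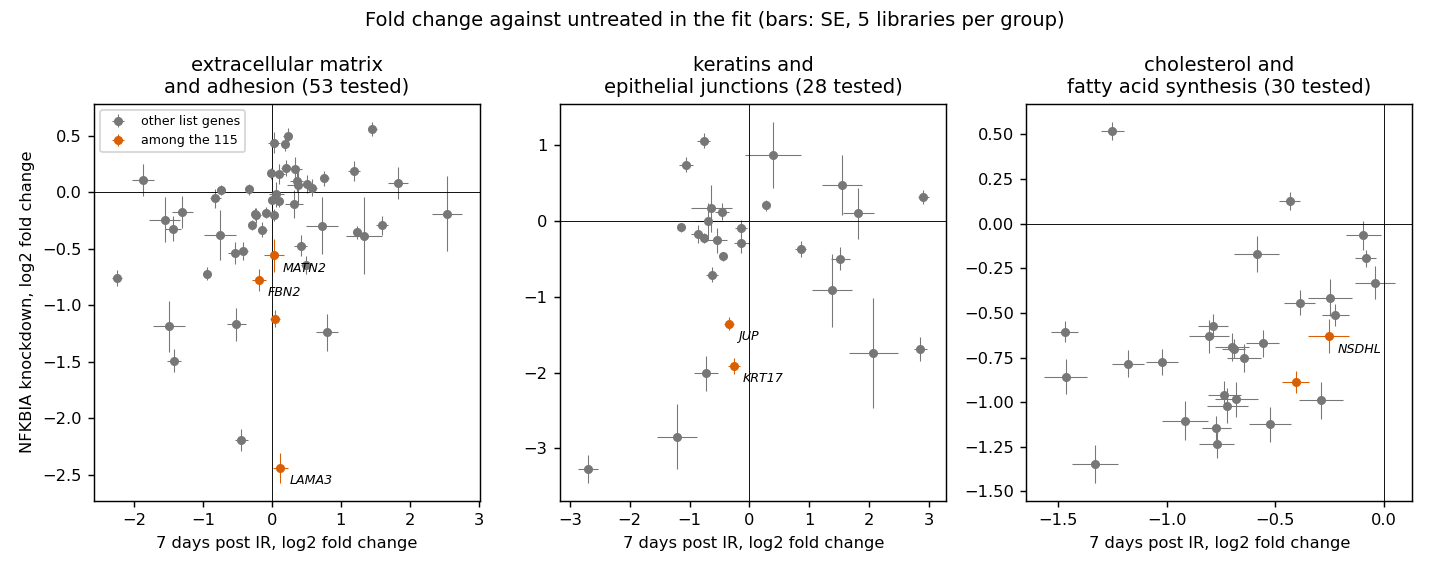
Fitted log2 fold changes against untreated, at 7 days post IR (horizontal) and in the knockdown (vertical), for the tested genes of 3 lists, with bars of 1 SE. The genes among the 115 (orange) lie near 0 on the horizontal axis, while most genes of the cholesterol list lie to the lower left.

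Genes of actin, microtubules and calcium-binding proteins differed in how much their untreated libraries spread. VASP, which promotes the growth of actin filaments, was even across libraries, with 142, 128, 134, 155 and 122 CPM in untreated cells and 67.9, 69.8, 70.01, 70.3 and 67.8 in the knockdown, -1.04 (SE 0.05) on the log2 scale. PDLIM1, an adaptor on stress fibres, ranged from 11.7 to 29 CPM in untreated and 5.92 to 9.27 CPM in knockdown libraries. TUBA4A, an alpha tubulin, had 34.7, 16.4, 30.9, 38.7 and 46.7 CPM in untreated cells and 17.7, 15.2, 13.3, 13.2 and 12 CPM in the knockdown, so that untreated replicate 2 lay inside the knockdown range. CNN1, calponin, overlapped in the same way (27.8 to 65 against 19.97 to 30.8 CPM). ANXA2, a membrane-binding annexin and the second most counted of the genes, had 1786, 1332, 1715, 2183 and 1556 CPM in untreated cells and 1172, 1099, 1096, 986 and 1078 CPM in the knockdown, -0.72 (SE 0.09) on the log2 scale. The fit with a lane factor gave ANXA2 -0.56 (SE 0.29), without a call. S100A2, a calcium-binding protein, was at 363, 301, 349, 486 and 640.5 CPM in untreated cells and 244, 236, 233, 215 and 198 CPM in the knockdown, and here untreated replicate 5 was far above the others. NF2, merlin, which links the membrane to actin and acts upstream in the Hippo pathway, had 259.9 to 290.3 CPM in untreated and 167 to 199 CPM in knockdown libraries. Counted per kilobase of gene width, S100A2 had the highest untreated median of the 115 at 231 CPM per kb, followed by KRT17 at 224, ANXA2 at 194 and COL1A1 at 191. In the knockdown these were 149, 62.9, 124 and 62.5 CPM per kb. The group was completed by TUBA3E, which has a near-identical copy in TUBA3D and whose counts are therefore uncertain, and by XIRP1, ANK1, DYNC1I1, CTNND2, PDZD2 and HN1.

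Adhesion proteins of neural tissue were led by CSMD2, a large transmembrane protein of synapses, with 7.15, 9.11, 8.94, 4.59 and 10.1 CPM in untreated cells and 3.05, 3.66, 2.93, 3.26 and 3.0 in the knockdown. AMIGO2, an adhesion molecule with leucine-rich repeats, was the most counted of this group at 523, 611, 539, 560.2 and 351 CPM in untreated cells and 358, 342, 333, 335 and 322 CPM in the knockdown, and overlapped through replicate 5. With the lane as a factor its log2 fold change was -0.02 (SE 0.15). ADGRL3, an adhesion receptor of the latrophilin family, stood just inside the limit at -0.61. The others were FAT3, CLSTN2, CNTN1, NRCAM, NRN1, PDZRN3 and LYPD6. None of the 55 axon guidance and neural adhesion genes of the list in the table is among the 115.

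Among receptors, IL7R, which encodes the alpha chain of the interleukin receptor that T cells depend on, was the clearest. IL7R had 94.8, 104, 103, 85.6 and 101 CPM in untreated cells, 90.9 to 102 at 90 minutes, 118 to 131 at 7 days and 33.9, 37.3, 36.6, 35.5 and 35.6 CPM in the knockdown. Its log2 fold change was -1.51 (SE 0.06) in the knockdown and 0.29 (SE 0.05) at 7 days, so the 2 values had opposite signs. MAP3K7CL, named for its likeness to the end of the kinase TAK1, had 88.7, 71.4, 86.1, 106 and 77.3 CPM in untreated cells and 38.3, 31.7, 32.4, 25.4 and 26 CPM in the knockdown. FGFR2, a fibroblast growth factor receptor, ranged over 18.3 to 21.4 CPM in untreated and 11.2 to 13.1 CPM in knockdown libraries, and GHR, the growth hormone receptor, over 8.31 to 12.7 and 5.95 to 7.19 CPM. These ranges did not overlap. Of 50 listed genes of EGF, FGF, PDGF and IGF signalling 40 were tested, and 7 were called lower and 9 higher in the knockdown, where 7.53% and 5.18% of all genes tested were. FGFR2 and IGFBP7 are the 2 among the 115.

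Some members of this group are known from the NF-κB pathway itself. ERC1, also called ELKS, is a partner of the IκB kinase complex, and had 196, 230.0, 244, 144 and 296 CPM in untreated cells and 115, 117, 116, 124 and 118 CPM in the knockdown, with untreated replicate 4 nearest to the knockdown. EDA, ectodysplasin, is a ligand of the tumour necrosis factor family whose receptors activate NF-κB. It had 7.5 to 9.93 CPM in untreated and 4.27 to 5.51 CPM in knockdown libraries. Of its receptors, EDAR was at a mean of 0.0359 CPM in untreated cells, while EDA2R had means of 62.5 ± 24.9 CPM there, 128 ± 1.22 CPM at 7 days and 61.1 ± 1.38 CPM in the knockdown (SD, n = 5). None of the 33 NF-κB feedback and pathway genes in the table is among the 115. Of the 30 tested, 5 were called lower in the knockdown, NFKBIA included, and 1 higher, when 7.53% and 5.18% of all genes tested were. RCAN1, an inhibitor of calcineurin, stood close to the limit (-0.61) and had a log2 fold change of -0.16 (SE 0.24) with the lane as a factor. TBC1D16, which acts on Rab proteins, did so too (-0.61). The rest of the group were GLP2R, GPR1, ADCY2, UBASH3B, RASSF9, MAST2, DISP2, APCDD1L, FRMPD1, VSTM1, MFAP3, BRE, TMEM184B and PARM1.

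Channels and transporters were 9 genes. ANO1, a chloride channel opened by calcium, was low, with 2.4, 2.65, 2.4, 1.97 and 2.26 CPM in untreated cells and 0.657, 0.769, 0.976, 0.899 and 1.05 in the knockdown. CACNA1D, a pore subunit of L-type calcium channels, ranged over 2.75 to 5.55 CPM in untreated and 1.59 to 2.25 CPM in knockdown libraries. KCNK1, a background potassium channel, had 26.5 to 39.2 and 15.3 to 17.7 CPM. KCNK1 was not called with the lane as a factor, at -0.65 (SE 0.29) on the log2 scale. TRPM2, a cation channel opened by oxidative stress, had 67.8 to 119 and 56.1 to 64.9 CPM, and the mechanically gated PIEZO2 21.6 to 32.9 and 17.7 to 18.8 CPM. For TRPM2 and PIEZO2 the gap between the groups was narrow, and TRPM2 had a log2 fold change of -0.15 (SE 0.18) with the lane as a factor. GABRA5, PANX2 and TMC5 are also in this group. Of 57 ion channel and pump genes, all tested, 8 were called lower and 7 higher in the knockdown, beside 7.53% and 5.18% of all genes tested.

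Among metabolic genes, NSDHL, an enzyme of cholesterol synthesis, had 39.4 to 59.8 CPM in untreated and 29.7 to 37.5 CPM in knockdown libraries. Of 30 tested genes of cholesterol and fatty acid synthesis 2 are among the 115, and 22 were called lower and 1 higher in the knockdown, against 7.53% and 5.18% of all genes tested, with a list median of -0.70. At 7 days 20 of the 30 were called lower, against 14.4% of all genes tested. Of the 22, 19 were past the 0.35 limit downward at 7 days, and so were outside the rule. INSIG1, which holds back sterol synthesis, had log2 fold changes of -1.35 in the knockdown and -1.33 at 7 days.

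PGD, an enzyme of the pentose phosphate pathway, had 273, 234, 255, 273 and 261 CPM in untreated cells and 122, 117, 117, 110.4 and 119 CPM in the knockdown, a log2 fold change of -1.21 (SE 0.05). EI24, a membrane protein of the endoplasmic reticulum first found as a p53-induced gene, had 138, 122, 131, 137 and 86.6 CPM in untreated cells and 50.4, 52.3, 48.7, 50.7 and 50.5 CPM in the knockdown. The knockdown libraries lay close together, while untreated replicate 5 was below the other untreated ones. At 7 days EI24 had 149.7 to 157 CPM and a log2 fold change of 0.29 (SE 0.08). FEZ1, which overlaps EI24 on the other strand, had log2 fold changes of -0.14 (SE 0.08) in the knockdown and 1.01 (SE 0.08) at 7 days. CRYAB, a small heat shock protein, had 199, 126, 171, 208 and 345 CPM in untreated cells and 137, 119, 125, 114 and 123 CPM in the knockdown, with replicate 2 inside the knockdown range and replicate 5 far above the rest. FBXL16, an F-box protein, had 23.8, 23.7, 25, 25.4 and 36 CPM in untreated cells and 10.7, 10.6, 10.5, 10.5 and 8.89 CPM in the knockdown. Further genes of this group were GGCX, the vitamin K dependent carboxylase, with medians of 105 and 54.9 CPM, QPRT of NAD synthesis (102 and 65.3 CPM), SPTLC1 of sphingolipid synthesis (60.4 and 38.8 CPM), GLTP, ABHD16A, BACE2, FBXL7, FBXO2, UBE2QL1 and PARP16.

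Nuclear and RNA-handling genes had the smallest median difference of these groups, and none of the 13 reached -1. RBFOX2, a splicing regulator, had 248, 268, 267, 213 and 293 CPM in untreated cells and 135, 139, 135, 142 and 133 CPM in the knockdown, -0.97 (SE 0.07) on the log2 scale. PHAX, an adaptor for export of small nuclear RNAs, had 72.1 to 94.9 CPM in untreated and 46.9 to 48.3 CPM in knockdown libraries. CENPB, a centromere protein, overlapped through replicate 5, with 59.1, 56.5, 59, 70.2 and 38.3 CPM in untreated cells and 37.6, 39.5, 39.3, 37.6 and 38.6 CPM in the knockdown, and its log2 fold change was -0.06 (SE 0.22) with the lane as a factor. RNGTT, which caps mRNA, ZFP1, ZNF814, ZNF586, ZFP82, ZBTB7C, SP6, THAP11, HSF2BP and RAI2 were the remaining ones. The genes with no role given here were CCDC129, AL662899.1, C10orf11, KIAA1211L, AC112721.1, CCDC92, AC010326.2, KIAA2022, LRRC66 and C1orf226. CCDC129 had the lowest fitted log2 fold change of all, -2.81 (SE 0.22), at 1.87, 1.68, 2.8, 1.75 and 2.31 CPM in untreated cells and 0.418, 0.308, 0.366, 0.187 and 0.217 CPM in the knockdown.

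In irradiated cells the rule held the medians near untreated, and the fit gave few calls. At 90 minutes 2 of the 115 were called in either direction, against 3.66% of the genes tested. These were SP6, higher by 0.56 (SE 0.13), and S100A2, at -0.51 (SE 0.15). SP6 was at 0.44 without untreated replicate 2 and at 0.49 without 90-minute replicate 1, under the threshold on the fold change. S100A2 was at -0.30 without untreated replicate 5, which had the highest level, and at -0.48 or -0.49 without untreated replicate 4 or 90-minute replicate 2 or 5. At 7 days 4 were called, all lower, against 31.1% of the genes tested, and the log2 fold changes were -0.58 for CCDC129, -0.92 for MUC3A, -0.56 for DYNC1I1 and -0.55 for APCDD1L. That of MUC3A rested on untreated replicate 5, without which it was -0.03 (SE 0.11), and its adjusted p also passed 0.05 when 7-day replicate 1, 2, 4 or 5 was left out. The others were lost as well with single libraries left out. CCDC129 was at -0.44 without untreated replicate 3, DYNC1I1 at -0.45 without untreated replicate 1, and APCDD1L at -0.44 without untreated replicate 5 and -0.48 without 7-day replicate 3. Without the threshold on the fold change, 15 of the 115 had an adjusted p under 0.05 at 90 minutes, against 21.3% of the genes tested, and 40 at 7 days, against 64.2%, in the quasi-likelihood test of edgeR, adjusted by the Benjamini-Hochberg method. Both follow from a rule that used these groups. The difference of medians at 7 days was below 0 in 71 genes and above 0 in 44. In 22 genes an irradiated median lay within 0.05 of its limit.

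At the knockdown limit of -0.6, the nearest genes inside were ADGRL3 (-0.61), TBC1D16 (-0.61), RCAN1 (-0.61), CENPB (-0.61) and FAM19A5 (-0.60). Those nearest outside, which met the other conditions, were SLC2A6, GPC1, ZCCHC5 and MVB12B, all at -0.59. Within 0.1 of the limit lay 43 genes inside and 53 outside, so the count of 115 depends on where the limit is set. With any 1 of the 20 libraries left out the rule gave 107 to 118 genes, and 66 of the 115 met it each time. Of the 15 genes with the lowest difference, MFAP5, COL1A1, CCDC129 and CST5 did not meet it each time.

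Properties that the rule did not use can be set beside those of the other genes with an untreated median of at least 1 CPM. Median gene width was 4826 bases against 4869, and median GC content of the longest transcript was 51.0% against 48.3%. The median span in the genome was 58.5 kb against 34.7 kb. By GENCODE 29, 114 of the 115 are protein coding and AC112721.1 is a long intergenic RNA. They lay on 21 chromosomes, with most on chromosomes 1 (11 genes) and 5 (10 genes). Chromosome 21 held 5 of the 115 among 126 genes at this level (3.97%), namely MAP3K7CL, HSF2BP, BACE2, TRPM2 and RCAN1. All chromosomes together held the 115 among 13186 genes at this level with a GENCODE 29 entry. Chromosome 21 was named after the values were seen, as the one with the highest share. Chromosomes 13 and 14 held none of the 115 among 217 and 440 genes.

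Besides KRT17 and JUP, further pairs lay within 3 places of each other among genes with an untreated median of at least 1 CPM. ABHD16A and AL662899.1 on chromosome 6 overlap on the same strand, and their values nearly coincided, at 37.3, 37.8, 36.9, 36.3 and 19.7 CPM for ABHD16A and 35.5, 36, 35.2, 34.9 and 17.4 CPM for AL662899.1 in untreated cells, so that they may count the same RNA. ZNF814 and AC010326.2 on chromosome 19 also overlap on the same strand, with 5.6 to 7.31 and 1.04 to 1.6 CPM in the knockdown. IGFBP7 and ADGRL3 on chromosome 4 are 4091 kb apart. In all, 25 of the 115 overlap another gene of the table. POLR2B, which overlaps IGFBP7 on the other strand, had a log2 fold change of 0.08 (SE 0.06) in the knockdown, and STK16, which overlaps TUBA4A on the other strand, 0.16 (SE 0.08). Neither was called.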

How the data were processed

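RNA-seq of 20 U2-OS libraries was used, 5 in each of 4 groups, with groups taken from the sample labels. The authors deposited 1 table of whole-number read counts for 20314 genes, without normalization, and 1679 of its rows carry no symbol. The submitters' processing notes name bcl2fastq, Trimmomatic, STAR 2.4.2a and hg19. The counting tool and its strand setting are not given in the sources used here, so overlapping genes and near-identical copies may share reads. The study calls the libraries of the untreated and irradiated groups biological replicates, but neither it nor the labels say whether the 5 libraries of a group came from separate cultures, so p values measure the spread between these libraries. No 2 libraries of a group were alike within counting noise.

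CPM was computed over library totals, and 0.5 was added before taking log2. Counts were fitted in edgeR 4.0.16 (R 4.3.3) with TMM, a filterByExpr minimum count of 10 and 1 term per group over all libraries. The test was the quasi-likelihood test with Benjamini-Hochberg adjustment over the 14992 genes tested. Fold changes are log2, and their SE comes from the F statistic. A call needed an adjusted p under 0.05 and a log2 fold change above 0.5 in size. The fit was checked on simulated counts. Alternatives were RLE factors, library size alone, 2 other count filters, DESeq2 1.42.0, a fit of the 2 groups compared, the replicate number as a block, the lane as a factor, leaving out each library, and for the rule TMM- or RLE-scaled CPM, means and other added constants.

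The genes and the 33 gene lists were chosen with earlier results of these data known, and support nothing by themselves. The lists held 18 of the 115 genes. Of the lists, 5 held 2 or more of them and are described, 6 held 1 and 22 held none. Named genes were the 15 with the lowest difference, the 10 with the highest untreated CPM, all in a list and the 5 on either side of the limit. Neighbours within 3 places, among genes with an untreated median of at least 1 CPM, were named too. VASP, RBFOX2, ERC1, EDA, TRPM2, PIEZO2, TIMP3, PHAX and GHR were added after their values were seen, as were others given by their values outside this rule. GENCODE 29 gave chromosome, overlap and length, and RefSeq's GRCh38.p14 table the promoters. The counts rest on hg19, and no coordinate was converted. Figures were drawn with matplotlib 3.10.9. Some genes are not reported here.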

Additional observations from a re-analysis of the deposited data

Results flagged for a closer look

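In 212 groups of 5 libraries, covering 52 named genes, some of them added after their values were seen, and NFKBIA, 9 groups held a library whose gap to the nearest other exceeded Dixon's 95% critical value of 0.710 of the group's range. Chance flags about 1 in 20 groups, or 10.6 of 212, so the number of flags is no more than chance gives. Untreated replicate 5 accounted for 3 of them. FBXL16 had 36.0 CPM there, with 23.7 to 25.4 in the other untreated libraries. AL662899.1 had 17.4 CPM against 34.9 to 36.0, and the overlapping ABHD16A 19.7 CPM against 36.3 to 37.9, so for both this library alone reached the knockdown range.

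In the other untreated libraries, CST5 had 5.69 CPM in replicate 2 against 3.76 to 4.30, and ADGRL3 14.3 CPM in replicate 4 against 19.5 to 21.0. In the knockdown FBXL16 had 8.89 CPM in replicate 5 against 10.5 to 10.7 in the others. At 90 minutes KCNK1 had 27.7 CPM in replicate 3 against 30.4 to 31.3, and FAM19A5 40.2 CPM in replicate 4 against 44.6 to 45.5. At 7 days CRYAB had 160.3 CPM in replicate 3 against 166 to 167.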

How the results depend on the processing

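The largest shift came with the sequencing lane as a factor, where groups are joined only through shared lanes. Genes lower in the knockdown rose from 1129 to 2094, genes higher from 777 to 1994 and genes changed at 90 minutes from 548 to 3820, while the 115 genes called lower dropped from 114 to 75, with 112 still below 0 and a median SE of 0.27 in place of 0.10. IGFL2, THAP11 and MATN2 reversed to 0.71, 0.46 and 0.25 in that fit. Its untreated and knockdown groups were joined to the others only through untreated replicate 5 and knockdown replicate 1. All of these genes overlapped with the knockdown only through untreated replicate 5. Beyond this dependence on single libraries, the cause of the shift was not tested. The median difference of the 115 genes moved from -0.75 to -0.81 with TMM-scaled CPM, -0.80 with RLE-scaled CPM, -0.80 with means and -0.84 with 0.1 added. The rule gave 136 genes with TMM-scaled CPM (102 of the 115 among them), 137 with RLE (107), 98 with means (83), 119 with 0.1 added (106) and 99 with 1 added (95). Leaving out 1 library at a time gave 1039 to 1344 genes lower, 723 to 913 higher, 460 to 689 changed at 90 minutes, 4608 to 4888 at 7 days, 113 to 115 of the 115 called lower, and -1.44 to -1.25 for NFKBIA. The lowest count of genes lower, 1039, came without untreated replicate 5. Over the 52 named genes and 18 settings, 917 of 935 fold changes kept their call, 17 kept only their direction and 1, MATN2, reversed.

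The replicate numbers did not pair the libraries, with correlations of deviations from -0.25 to 0.12 over 30 pairs, 2 of them over 0.1. With the replicate block 1072 genes were lower, and 115 of the 115 were called. It changed no other result by over 1.5 times.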
